A study of Mus musculus with 2 samples.

Results

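Secretoglobins and pulmonary surfactant proteins are secreted products of the airways, the alveoli and several glands, and 10 of their genes were followed here in thymic epithelium. The genes were picked by their symbols in the deposited gene table, with earlier results of these data known. They were 6 secretoglobin genes (Scgb1a1, Scgb1c1, Scgb3a1, Scgb3a2, Scgb1b27 and Scgb2b27) and 4 surfactant protein genes (Sftpa1, Sftpb, Sftpc and Sftpd), out of 23997 rows. Poly-A RNA had been sequenced from medullary thymic epithelial cells (mTECs) sorted for high MHC class II from thymus of C57BL/6 mice. There was 1 library of genotype WT and 1 of genotype Aire-/-, here called the library labelled Aire-KO, each from pooled animals. The sources used here do not give how many animals were pooled, their age and sex, or how the Aire allele was made. With 1 library each, no difference has a replicate check, and genotype cannot be told apart from anything else that differed between the libraries.

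Secretoglobins are small secreted proteins that pair into dimers and carry hydrophobic ligands. Surfactant is the lipid and protein film that lowers surface tension in the alveoli. The proteins of both groups are made outside the thymus, and mTECs are known for transcribing genes of other tissues at low levels, so that developing T cells can be screened against the products. Aire is the nuclear regulator on which a large share of that transcription depends.

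Levels are in FPKM, the fragments of a transcript scaled by its length and by the depth of the library. Pairs of values give the library labelled WT first, and lower or higher always describes the library labelled Aire-KO. Aire itself stood at 220.6 and 640.2 FPKM, so its transcript level did not fall with the label, and directions below are therefore those of the labels. To be called, a gene needed a mean of at least 0.5 FPKM and a 2-fold difference once 0.1 FPKM had been added to each value, which sorts genes by size without testing them. The depth estimated from the values was 47000000 and 53600000 fragments. As a check of the labelled identity, all 13 mTEC markers were present in both libraries, with none lower and 1 higher. H2-Aa, an MHC class II gene, stood at 8398 and 11948 FPKM, the tight junction gene Cldn4 had the lowest ratio (581.8 and 308.6 FPKM) and Ciita, the MHC class II regulator gene, the highest (48.1 and 100.7 FPKM).

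All 10 genes passed the minimum and all 10 were lower in the library labelled Aire-KO, against 20.5% of 15906 measured genes. None was higher, against 7.09% of measured genes. The 10 were chosen with earlier results of these data known, and none of the other 18 Scgb or Sftp rows passed the minimum. The count of 10 is therefore that of a selected set. All 10 were also lower at a 4-fold difference, which 11.9% of measured genes reached, while 0.629% were higher by as much. The median log2 ratio was -4.26, beside 0.05 over all measured genes. It was -2.25 with 1 FPKM added in place of 0.1, and -3.57 over the 6 genes with at least 0.5 FPKM in both libraries, so its size depends on these choices. Together the 10 genes summed to 603.7 and 53.5 FPKM, so that 8.86% of the summed level was left. Of the 10, 4 had less than 0.5 FPKM in the library labelled Aire-KO and passed the minimum only through the other library, which fixes their direction. The other 6 had 0.5 FPKM or more in both libraries and all 6 were lower, against 12.3% of the genes so measured (7.04% were higher). That selection was made after the values were seen. In sorted bulk cells, fewer cells that express a gene and less RNA per cell cannot be told apart.

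**Figure D1:**
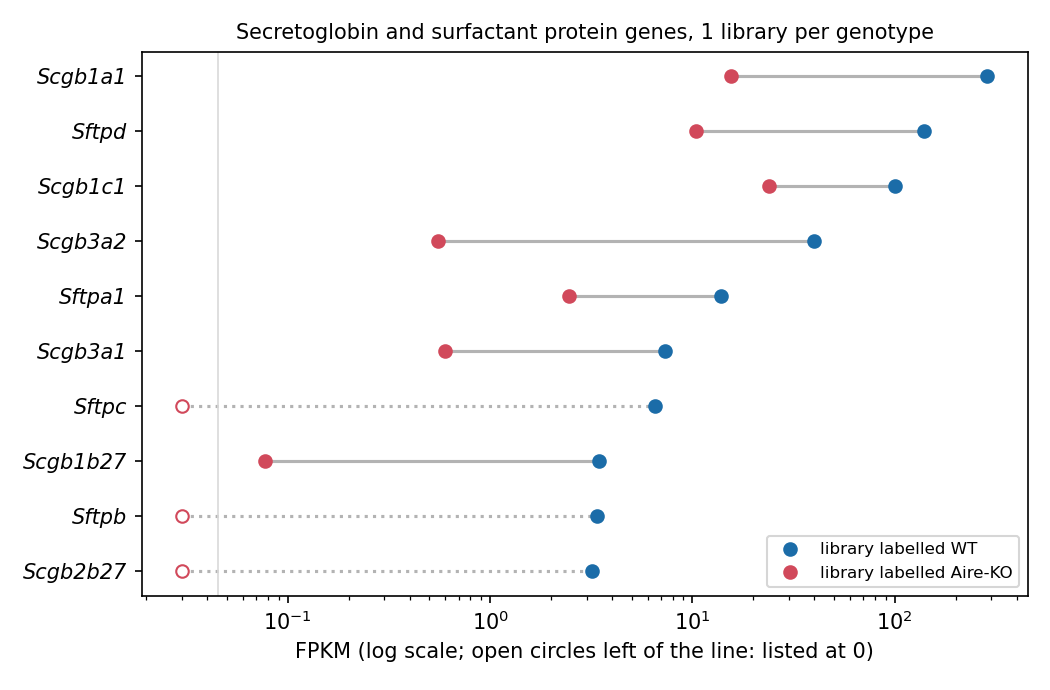
FPKM of the 10 genes on a log axis, with 1 point for each library and a line joining the pair. Every point of the library labelled Aire-KO lies left of its partner, from 23.8 FPKM for Scgb1c1 down to the 3 genes listed at 0, drawn as open circles left of the vertical line.

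Levels in the library labelled WT spanned 89.7-fold, from Scgb1a1 at 286.5 FPKM to Scgb2b27 at 3.19 FPKM. Scgb1a1 exceeded 98.7% of the rows with any signal, and Scgb2b27 exceeded 42.8% of them. The order in the library labelled WT was Scgb1a1, Sftpd, Scgb1c1, Scgb3a2, Sftpa1, Scgb3a1, Sftpc, Scgb1b27, Sftpb and Scgb2b27. In the library labelled Aire-KO Scgb1c1 was first, followed by Scgb1a1, Sftpd, Sftpa1, Scgb3a1 and Scgb3a2. The most abundant gene made up 47.4% of the summed level in the former library and 44.6% in the latter.

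Scgb1a1 encodes the main secretory protein of airway club cells (chromosome 19, 9083642 to 9087956, mm10, 3 exons). It stood at 286.5 and 15.5 FPKM, 18.4-fold lower. The log2 ratio without added value was -4.20, with a 95% counting interval of -4.39 to -4.02. These intervals rest on fragment numbers estimated from the FPKM values, here about 4254 and 263 fragments, and cover counting error only. For short transcripts the estimates are loose: 2627 to 4933 and 164 to 306 fragments were possible for Scgb1a1.

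Scgb3a1 and Scgb3a2 encode related secretoglobins of the conducting airways. Scgb3a2 (chromosome 18, 43764301 to 43767399) stood at 39.97 and 0.552 FPKM, 72.5-fold lower. Its log2 ratio of -6.18 (counting interval -7.14 to -5.37) rested on about 12 fragments in the library labelled Aire-KO. By the ratio with 0.1 added, -5.94, it ranked 107th from the lowest of 15906 genes. Scgb3a1 (chromosome 11, 49663595 to 49665118) stood at 7.30 and 0.600 FPKM, 12.2-fold lower, with a log2 ratio of -3.60 (-4.65 to -2.71) and about 11 fragments in the library labelled Aire-KO. The counting intervals of this pair did not overlap, although their remaining levels were alike.

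Scgb1c1, a secretoglobin known from olfactory mucosa, had the smallest difference of the 10 genes. It stood at 99.8 and 23.8 FPKM, 4.19-fold lower, with a log2 ratio of -2.07 (-2.23 to -1.90). Of the level in the library labelled WT, 23.9% was left, compared with 5.42% for Scgb1a1. The deposited table gives Scgb1c1 a merged locus with Urah, an enzyme gene of urate breakdown (193.8 and 95.1 FPKM), and the long non-coding RNA C330022C24Rik (1.90 and 0.468 FPKM). In RefSeq, Scgb1c1 (chromosome 7, 140845565 to 140846769, GRCm38.p6) overlaps only that RNA, by 125 bases, and how the counting used strand is not stated. The counting interval of Scgb1c1 does not cover this uncertainty of assignment.

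Scgb1b27 and Scgb2b27 encode subunits of androgen-binding protein, a secretoglobin dimer of mouse saliva and tears. They lie 7.625 kb apart on chromosome 7, Scgb2b27 at 34011919 to 34013942 on the minus strand and Scgb1b27 at 34021567 to 34022881 on the plus strand. Their levels in the library labelled WT were nearly equal, 3.44 FPKM for Scgb1b27 and 3.19 FPKM for Scgb2b27. In the library labelled Aire-KO, Scgb1b27 stood at 0.0772 FPKM, about 1 fragment, and Scgb2b27 was listed at 0. The ratio of Scgb1b27, 44.6-fold lower, is therefore loose (log2 -5.48, counting interval -10.81 to -2.94), and its interval holds that of Scgb3a2. The 2 values there cannot be told apart, since 3 fragments would give 0.168 FPKM for Scgb1b27 and 0.159 FPKM for Scgb2b27.

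The androgen-binding protein genes form a cluster of 2810 kb, in which the table has 20 rows, and the pair with the highest level lay near its end. Apart from Scgb1b27 and Scgb2b27, 7 of the other 18 rows were above 0 in the library labelled WT and none in the library labelled Aire-KO. All 7 were below the minimum mean of 0.5 FPKM and were not called. Scgb2b20 had 0.956 FPKM and Scgb2b26 0.620 FPKM, followed by Scgb2b7 (0.321 FPKM), Scgb1b3 (0.274 FPKM), Scgb2b24 (0.269 FPKM), Scgb2b2 (0.261 FPKM) and Scgb1b24 (0.199 FPKM). The 11 rows at 0 in both libraries were Scgb1b2, Scgb1b7, Scgb1b19, Scgb1b20, Scgb1b29, Scgb1b30, Scgb2b3, Scgb2b12, Scgb2b17, Scgb2b19 and Scgb2b23-ps. Close copies can trade reads, so the 100-base read length was compared with the transcripts of GENCODE. No 100-base window of any of the 10 transcripts occurred in a transcript of another gene, nor came within 2 mismatches of another Scgb or Sftp transcript. The nearest window differed by 3 bases for Scgb2b27 (from Scgb2b26) and by 4 for Scgb1b27 (from Scgb1b30). Copies outside annotated transcripts were not examined.

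**Figure D2:**
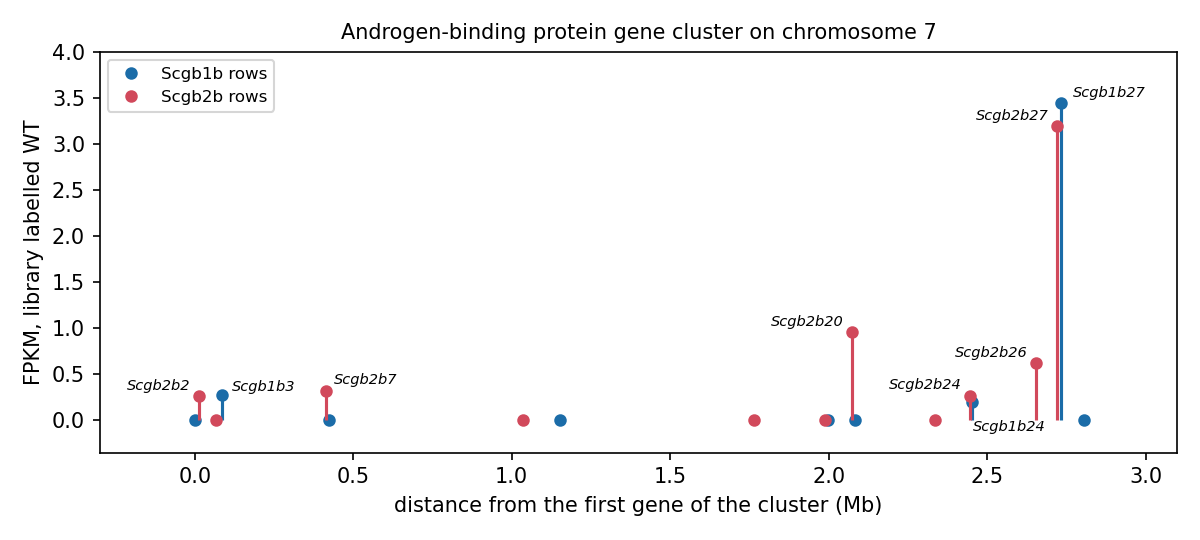
FPKM in the library labelled WT for the 20 Scgb1b and Scgb2b rows along their cluster on chromosome 7, by distance in Mb from its first gene. The highest stems are Scgb1b27 at 3.44 FPKM and Scgb2b27 at 3.19 FPKM, and the other rows lie at 0.956 FPKM or below.

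Surfactant proteins fall into 2 kinds. Sftpa1 and Sftpd encode collectins, soluble lectins that bind sugars on microbes, and Sftpb and Sftpc encode small hydrophobic peptides, cut from larger precursors, that spread the lipid film. The collectin genes had the higher levels. Sftpd (chromosome 14, 41172212 to 41185198, 8 exons) stood at 139.8 and 10.4 FPKM, 13.4-fold lower. It made up 85.5% and 81.0% of the summed surfactant protein level. Its log2 ratio of -3.74 (-3.86 to -3.63) rested on about 7327 and 624 fragments.

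Sftpa1 (chromosome 14, 41131788 to 41136373, 6 exons) stood at 13.8 and 2.45 FPKM, 5.65-fold lower. Its log2 ratio of -2.50 (-2.67 to -2.33) did not overlap that of Sftpd by counting error. The share left was 17.7% for Sftpa1 and 7.46% for Sftpd, although the genes lie 35.8 kb apart. Between them lies Mbl1, a mannose-binding collectin gene, at 0.603 and 0.0245 FPKM, below the minimum mean.

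For both hydrophobic peptide genes the library labelled Aire-KO has a listed value of 0. Sftpc (chromosome 14, 70520942 to 70524081, 6 exons) had 6.56 FPKM, from about 195 fragments, in the library labelled WT and was listed at 0 in the other. Sftpb (chromosome 6, 72304610 to 72314373, 11 exons) stood at 3.36 FPKM, from about 160 fragments, and was likewise listed at 0. The rows of both genes have status OK, but a listed 0 may also stand for a value that could not be estimated. Neither gene is therefore given a fold. For scale, 3 fragments would have given 0.0886 FPKM for Sftpc and 0.0576 FPKM for Sftpb. With Scgb2b27, 3 of the 10 genes were listed at 0, against 1.62% of measured genes. These 3 passed the minimum only through the library labelled WT, which fixes their direction.

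Where a gene had more than 1 isoform, a single isoform led, also in any remaining signal. NM_001289644 made up 97.2% of Scgb3a2 and NM_054037 95.8% of Scgb3a1 in the library labelled WT, and each made up 100% of the little that was left. NM_147779 made up 87.8% of Sftpb, and NM_001100464 92.5% of Scgb2b27. The minor isoforms had at most 1.11 FPKM (NM_001289643 of Scgb3a2). The other 6 genes had a single isoform in the table.

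The authors' deposited table called 3 of the 10 genes, Sftpb, Sftpc and Sftpd, each with q of 0.0155, against 0.292% of all rows called lower. In the authors' deposited table the q values of the remaining genes ran from 0.0701 for Scgb2b27 and 0.127 for Scgb1a1 to 0.823 for Scgb1c1. These p-values and q-values compare 2 libraries and not the genotypes. The q of Scgb3a2 in the authors' deposited table was 0.779.

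**Figure D3:**
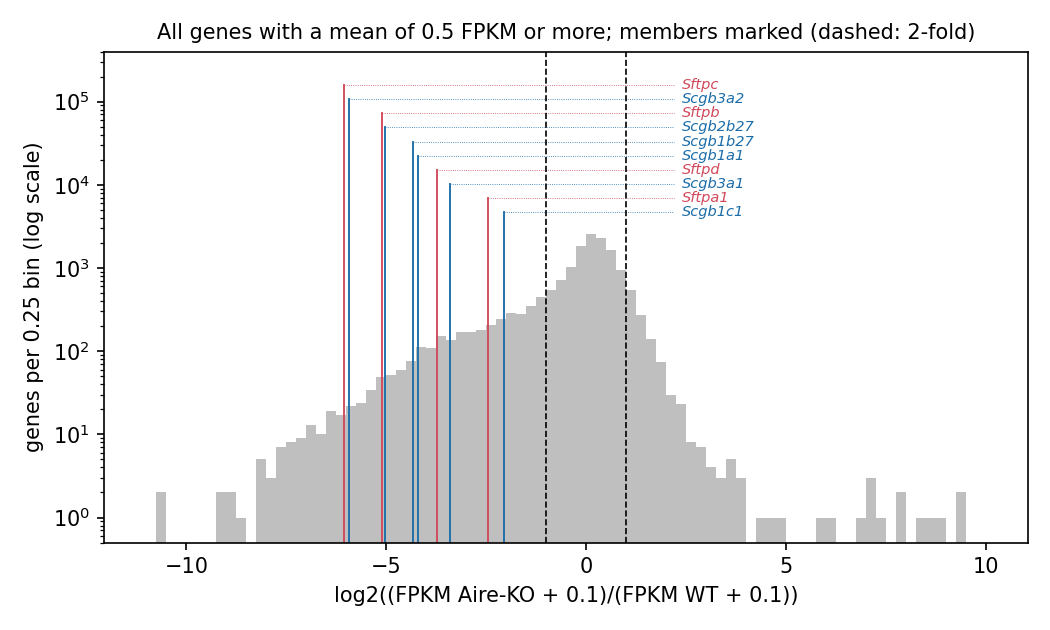
Histogram of the log2 ratio, with 0.1 FPKM added, over 15906 measured genes (log count axis), with a vertical line for each of the 10 genes, secretoglobins in blue and surfactant proteins in red. The lines run from -6.06 for Sftpc to -2.06 for Scgb1c1, all left of the dashed 2-fold line at -1. For the 3 genes listed at 0 the place of the line depends on the added value. The median of all genes is 0.05.

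Sequence just before the start site was matched by symbol for 6 of the 10 genes (RefSeq, GRCm38.p6): Scgb1c1, Scgb3a1, Scgb1b27, Scgb2b27, Sftpa1 and Sftpb. Each window is the 200 bases before the start. Both strands were searched for motifs of factors known to act on lung genes, and for the TATA box and GC box, which are general promoter elements. For the lung and thyroid factor NKX2-1 the letters were CTCAAG and the partly overlapping forms CACTTGA or alternatively CACTCAA. For forkhead factors they were TGTTTGC or otherwise TGTTTAC. For C/EBP factors they were TTGCAAT, for the TATA box TATAAA, and for the GC box GGGCGG. The 4 windows with a match are printed 5′ to 3′ on the strand of the gene, and capitals mark the matches.
Sftpb, chr6:72304410-72304609, plus strand: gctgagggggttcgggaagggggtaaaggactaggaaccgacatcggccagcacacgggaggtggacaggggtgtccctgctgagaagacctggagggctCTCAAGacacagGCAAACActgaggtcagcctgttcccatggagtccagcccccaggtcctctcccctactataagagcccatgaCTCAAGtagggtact
Sftpa1, chr14:41131588-41131787, plus strand: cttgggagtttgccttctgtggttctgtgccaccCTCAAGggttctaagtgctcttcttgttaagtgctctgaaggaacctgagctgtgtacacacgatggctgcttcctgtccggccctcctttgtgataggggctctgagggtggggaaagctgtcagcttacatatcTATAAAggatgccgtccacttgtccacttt
Scgb1c1, chr7:140845365-140845564, plus strand: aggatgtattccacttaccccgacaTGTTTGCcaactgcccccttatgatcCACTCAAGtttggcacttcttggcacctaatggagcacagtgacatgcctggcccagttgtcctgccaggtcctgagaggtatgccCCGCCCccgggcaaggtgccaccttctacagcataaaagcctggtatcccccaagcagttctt
Scgb3a1, chr11:49663395-49663594, plus strand: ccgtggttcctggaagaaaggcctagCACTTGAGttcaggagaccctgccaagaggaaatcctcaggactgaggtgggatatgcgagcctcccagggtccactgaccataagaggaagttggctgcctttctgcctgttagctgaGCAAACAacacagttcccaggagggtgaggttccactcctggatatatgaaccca

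CTCAAG occurred in 4 of the 6 windows (Sftpb, Sftpa1, Scgb3a1 and Scgb1c1) and in 10.5% of 32851 such windows over all genes. In Sftpb it occurred at 2 positions, starting 100 and 15 bases before the start site. TGTTTGC occurred in 3 of the 6 windows (Sftpb, Scgb3a1 and Scgb1c1) and in 3.35% of all windows. TATAAA was found before Sftpa1, starting 30 bases upstream, and in 9.96% of all windows. CACTTGA was found before Scgb3a1 (2.13% of all windows), CACTCAA before Scgb1c1 (2.06%) and GGGCGG before Scgb1c1 (31.0%). TGTTTAC (2.51% of all windows) and TTGCAAT (1.43%) were found in none of the 6. The windows of Scgb1b27 and Scgb2b27 held none of these letters, which says nothing of the factors. The RefSeq window of Scgb1b27 ends at 34021480, somewhat upstream of the start deposited for that gene. These are matches of letters in a short window, and binding was not measured.

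Transcription factors of lung epithelium ranged widely in level, from Gata6 to Cebpa. Nkx2-1, the factor that specifies lung and thyroid, stood at 0.499 and 0.0264 FPKM, below the minimum mean. Of 14 such genes, 12 were measured: 6 lower, 1 higher and 5 neither (median log2 ratio -1.01). For this list and those that follow, the shares over all measured genes were 20.5% lower and 7.09% higher. In these lists, a measured gene below 0.5 FPKM in 1 library passed the minimum only through the other, which fixes its direction. The lower genes included Spdef, a factor of mucus-secreting cells (4.73 and 0.257 FPKM), Elf5 (4.94 and 0.704 FPKM), Klf5 (25.7 and 5.01 FPKM), Foxa2 (1.97 and 0.660 FPKM) and Cebpb (24.9 and 11.6 FPKM). Nfib was higher, at 1.13 and 2.80 FPKM. Foxa1 (14.0 and 7.34 FPKM), Foxa3 (2.14 and 1.66 FPKM), Cebpa (85.4 and 57.2 FPKM), Cebpd (27.7 and 33.4 FPKM) and Etv5 (1.46 and 1.29 FPKM) were neither. Gata6 stood at 0.210 and 0.159 FPKM, below the minimum mean.

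Genes that airway secretory cells express beside Scgb1a1 were mostly lower. All 12 were measured: 11 lower and 1 neither (median log2 ratio -4.44). The list was chosen with earlier results of these data known. Its mucin genes had less than 0.5 FPKM in the library labelled Aire-KO. They passed the minimum only through the other library, which fixes their direction. Bpifa1, a secreted lipid-binding defence protein, stood at 957.2 and 71.0 FPKM, and the mucin gene Muc5ac at 7.44 and 0.0376 FPKM. Cbr2, a carbonyl reductase gene of club cells, was the exception at 638.7 and 519.6 FPKM. Its level was the second highest of the list in the library labelled WT, and most of it remained.

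Genes of the alveolar type 2 cell, the source of surfactant, were less uniform. Of 9 genes 6 were measured, with 3 lower, 3 neither and a median of -1.17. The lowest ratio was that of Chil1, a chitinase-like protein gene (265.2 and 39.9 FPKM), and Ctsh, a cathepsin gene, had the highest level and ratio (290.4 and 543.6 FPKM). The remaining genes are named for their role and were chosen after their values were seen. Slc34a2, the phosphate transporter (33.2 and 8.50 FPKM), and Napsa, a protease that processes the precursor of surfactant protein B (25.1 and 8.70 FPKM), were lower. Abca3, which loads lipid into the storage organelles of surfactant (19.3 and 10.9 FPKM), and Lpcat1, an enzyme of surfactant lipid synthesis (14.4 and 13.4 FPKM), were neither. Lamp3, Lgi3 and Cldn18 had at most 0.655 FPKM and were below the minimum mean.

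Of the 5 other collectin genes, 3 were measured. Mbl2, the liver mannose-binding lectin gene (14.8 and 0.513 FPKM), and Colec11 (1.24 and 0.106 FPKM) were lower, and Colec12, a membrane-bound collectin gene, was higher (2.90 and 9.89 FPKM).

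**Figure D4:**
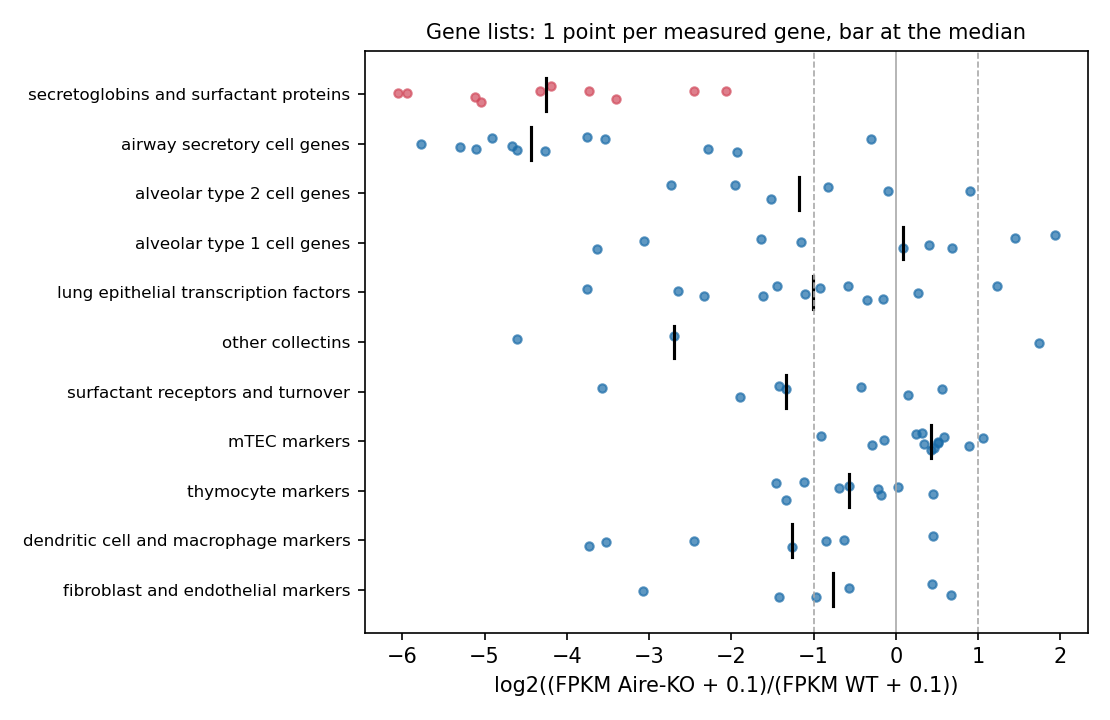
Log2 ratio with 0.1 FPKM added, 1 point for each measured gene of each list and a black bar at the list median, dashed lines at 2-fold. The secretoglobins and surfactant proteins (median -4.26) and the airway secretory genes (-4.44) lie furthest left, and the mTEC markers (0.43) lie around and to the right of 0.

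Genes marking the other cell types that sorted thymus cells may include were present in both libraries and none was at 0. Summed levels were 724.7 and 474.8 FPKM for 10 dendritic cell and macrophage markers (4 of 7 measured lower), mostly Lyz2. They were 35.5 and 21.4 FPKM for 10 thymocyte markers (3 of 9 lower) and 36.8 and 27.5 FPKM for 8 fibroblast and endothelial markers (2 of 6 lower). No marker of these lists was higher, and over all measured genes 20.5% were lower and 7.09% higher. Ratios ran from Itgam (9.40 and 0.614 FPKM) to Cd68 (24.1 and 33.1 FPKM) in the first list, with Lyz2 at 675.5 and 436.4 FPKM. In the thymocyte list they ran from Cd3g (7.63 and 2.73 FPKM) to Rag1 (0.546 and 0.783 FPKM), with Lck highest in level (9.83 and 4.46 FPKM). In the last list they ran from Cdh5 (2.62 and 0.222 FPKM) to Col1a2 (3.50 and 5.62 FPKM), with Col1a1 highest in level (8.89 and 4.49 FPKM). Their part in the levels of the secretoglobin and surfactant protein genes was not tested.

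Genes next to the 10 loci were also examined, within 100 kb on either side. Of 38 measured genes 13 were lower and none higher, 34.2% against the 20.5% over all genes, with a median log2 ratio of -0.42. Of the 13, Cyp2e1, Syce1, C330022C24Rik, Flt4, Dydc2 and Piwil2 had less than 0.5 FPKM in the library labelled Aire-KO. They passed the minimum only through the other library, which fixes their direction. Around Scgb3a2 both measured neighbours were strongly lower, the trypsin inhibitor gene Spink3 (1237 and 84.8 FPKM, 27.1 kb away) and Gm94 (320.1 and 18.5 FPKM, 9.797 kb away). Near Sftpa1 the liver methionine adenosyltransferase gene Mat1a was lower (6.93 and 1.63 FPKM), as was Dydc2 (0.942 and 0.219 FPKM). None of 8 measured genes around Sftpb was lower, the nearest being Usp39 (15.3 and 21.3 FPKM), a splicing factor gene. Around Scgb1a1, the large scaffold gene Ahnak (23.8 and 33.7 FPKM, 6.716 kb away) and Asrgl1 (5.98 and 4.48 FPKM) were neither. Around Sftpc 3 genes were lower: Piwil2, a gene of small RNA silencing in germ cells (1.81 and 0.0117 FPKM), Phyhip (4.68 and 1.63 FPKM) and the hair growth regulator gene Hr (9.46 and 2.30 FPKM). The nearest gene there, the procollagen protease gene Bmp1, was neither (12.6 and 22.4 FPKM, 0.682 kb away), like the remaining measured genes around Sftpc. Around Scgb1c1 5 genes were lower, Urah and C330022C24Rik of the merged locus and 3 others. These were the cytochrome gene Cyp2e1 (1.48 FPKM, then listed at 0), the meiosis gene Syce1 (1.13 and 0.0714 FPKM) and the inflammasome gene Nlrp6 (5.21 and 0.947 FPKM). The remaining measured genes around Scgb1c1 were neither, and Urah lay close to the 2-fold line (log2 ratio -1.03). Near Scgb3a1 the lymphatic receptor gene Flt4 was lower (0.940 and 0.244 FPKM) and Cnot6, a gene of RNA deadenylation, was neither (11.7 and 19.1 FPKM). Wtip, the only measured neighbour of Scgb1b27 and Scgb2b27 outside the set, was neither (3.06 and 2.79 FPKM). Lower neighbours were thus found at some of the loci and not at others.

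**Figure D5:**
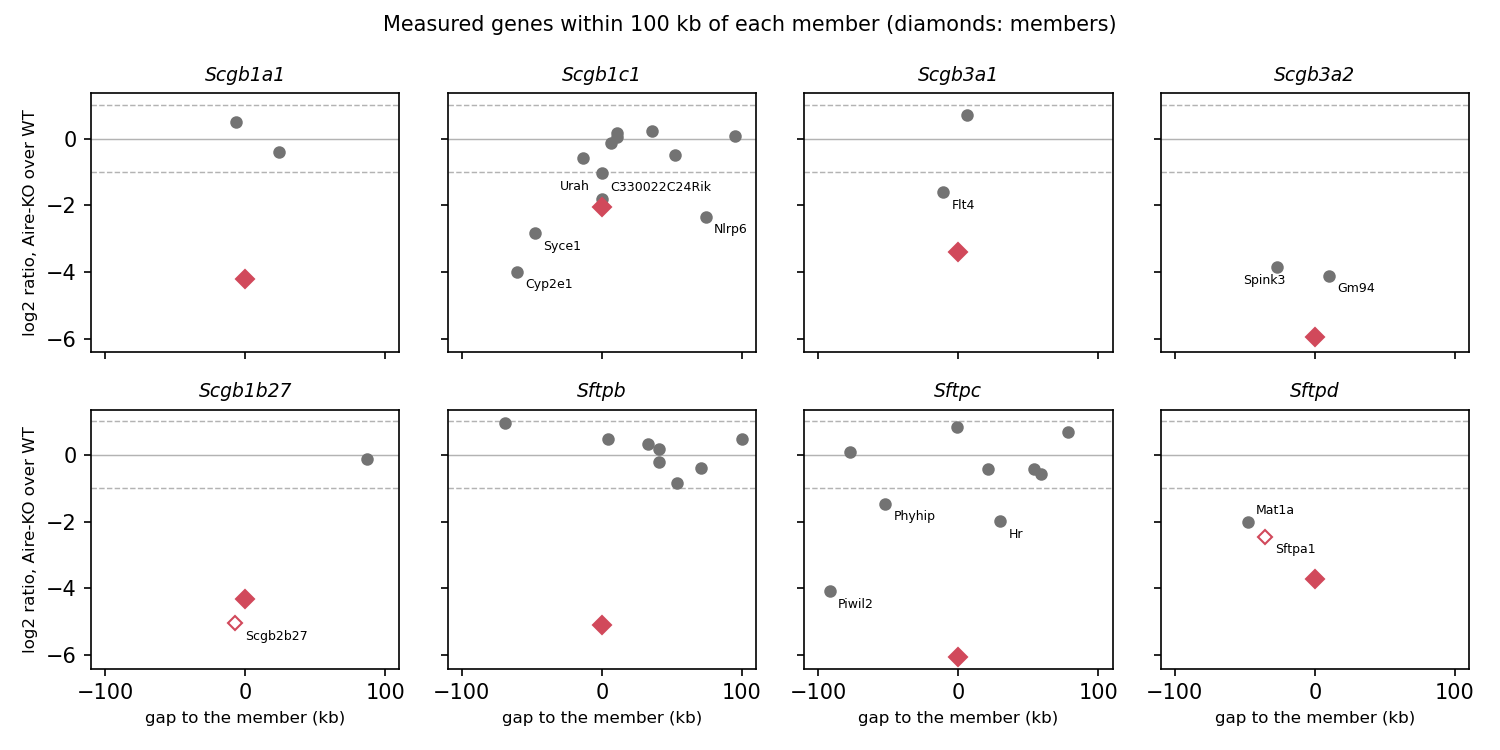
Log2 ratio with 0.1 FPKM added (vertical) against the gap in kb to the named gene (horizontal), for measured genes within 100 kb, 1 panel per locus, with filled diamonds for the named gene, open diamonds for a second gene of the set, and names on the lower neighbours. The neighbours of Scgb3a2 lie near -4, whereas those of Sftpb and Scgb1a1 lie between the dashed 2-fold lines.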

How the data were processed

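Values are FPKM per gene and per isoform as deposited by the authors, who used TopHat2 and Cuffdiff on genome build mm10, per the submitters' processing notes. Their versions, annotation and scaling are not stated in those notes. The p-value and q-value columns deposited by the authors are quoted as theirs. Rows without an estimate (5 genes, status HIDATA) were left out. Locus starts in the tables count from 0 and are printed counted from 1.

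Depth was estimated from low values: in single-isoform genes of 2000 bp or more, FPKM times length less 160 bp fell within 0.1 of whole fragments for 78.3% and 79.0% of 189 and 462 values, at 47000000 and 53600000 fragments (WT and Aire-KO). Corrections of 100 to 290 bp did nearly as well. Step and correction were fitted to these values, so the shares test nothing. Counting intervals are exact conditional binomial (95%, SciPy 1.17.1), and floors use 3 fragments. Lengths, exons and strands came from GENCODE M21. The rule of size was tested on simulated data with counting noise only, and with changes of 4-fold or more in genes of 2 FPKM or more. How it treats changes in lower genes, or differences between libraries beyond counting noise, was not tested. The members and lists were chosen with earlier results of these data known. Named are all members, other Scgb and Sftp rows, the nearest neighbours and, after their values were seen, all lower ones, the listed transcription factors except 1 that is not reported here, and from each list the highest level and the lowest and highest ratio. Protein sequences were not analysed here.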

Additional observations from a re-analysis of the deposited data

How the results depend on the processing

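In each setting tried, every one of the 10 genes that was measured was lower, and none was higher. With a mean of 2 FPKM required, 7 were measured and 7 lower, beside 1804 lower of 12611 genes so measured. Of these 7, Scgb3a1, Scgb3a2 and Sftpc reached that mean only through the library labelled WT, which fixes their direction. With 0.5 FPKM required in both libraries, chosen after seeing the data, 6 were measured and 6 lower, against 12.3% of genes so measured. The median log2 ratio of the genes was -4.76 with 0.01 FPKM added, -2.25 with 1 FPKM added, -3.73 with a mean of 2 FPKM, -4.38 after rescaling and -3.57 with 0.5 FPKM in both libraries. Rescaling set the median log2 ratio of 8670 genes with 5 FPKM or more in both libraries, 0.17, to 0. All 65 ratios of single genes under these alternatives were at or below -1, the highest being -2.02. Settings that only left out genes repeated the main ratios, as did values summed from isoforms. The 65 are therefore not 65 separate checks.

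Over all genes, 3260 of 15906 were lower under the main rule, and the number measured changed with the minimum. Lower genes were 5180 of 20478 with no minimum and 1804 of 12611 with a mean of 2 FPKM. They were 1893 of 15906 at 4-fold and 1722 of 14048 with 0.5 FPKM in both libraries. Higher genes numbered 701 with 1 FPKM added, 100 at 4-fold and 718 after rescaling, against 1128. Values summed from isoforms gave 3256 lower and 1130 higher genes, and rows of status OK only gave 3260 and 1128. Of the 10 genes, all 10 were lower under both, as were 9 of 9 without Scgb1c1, which was left out after seeing the data. No paired analysis was possible because there was 1 library per genotype.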

Other observations

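Genes of the flat alveolar type 1 cell, which makes no surfactant, differed in both directions. All 9 were measured: 4 lower, 2 higher and 3 neither (median log2 ratio 0.09). Hopx, a homeodomain cofactor gene, stood at 93.1 and 11.0 FPKM and the water channel gene Aqp5 at 14.0 and 1.04 FPKM. The anchoring protein gene Akap5 stood at 0.172 and 0.937 FPKM. Akap5 passed the minimum only through the library labelled Aire-KO, which fixes its direction. Among 8 genes of surfactant binding and turnover, 7 were measured, of which 4 were lower and none higher. Over all measured genes the shares were 20.5% lower and 7.09% higher. The scavenger receptor gene Marco, also a macrophage gene, stood at 7.60 and 0.549 FPKM, and the chaperone gene Calr, whose product binds collectins at cell surfaces, at 864.1 and 1275 FPKM. Of 7 measured dendritic cell and macrophage markers 4 were lower in the same library and 3 neither, and their part in the level of Marco was not tested.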
